A study of Mus musculus with 6 samples.

Results

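The mitochondrial ribosomal protein genes are the nuclear genes whose symbols begin with Mrpl or Mrps and a number. Choosing these symbols from the authors' deposited table, and leaving out those of pseudogenes, gave 76 genes of 22609 listed, 47 named for the large subunit (Mrpl) and 29 for the small subunit (Mrps). All 76 were detected in both groups and had been tested by the authors. The values compare early T cell progenitors, the most immature thymocytes, sorted from C57BL/6 fetal thymus as cells without lineage markers, CD4, CD8 or CD25 and with CD44 and c-Kit. One group was wild type (control, 3 libraries). The other had the genotype E2Afl/flHEBfl/flIL7RCre (dKO, 3 libraries), in which Cre recombinase expressed from the Il7r locus deletes E2A and HEB, the E protein transcription factors encoded by Tcf3 and Tcf12. Only the dKO cells were also gated on YFP, so genotype and gate cannot be told apart. Whether each library had its own animals is not in the labels, and the p-values then measure only the spread among these libraries, which may be technical. The age of the fetuses is not in the labels either.

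The mitochondrial ribosome translates the few proteins that mitochondrial DNA encodes, all of them subunits of the respiratory chain and ATP synthase. Its RNAs come from the mitochondrial genome, and every one of its proteins is encoded in the nucleus, made in the cytosol and imported. The small subunit holds the mRNA and the decoding centre. The large subunit joins amino acids and passes the new chain through its exit tunnel to the inner membrane. Many of the proteins descend from bacterial ribosomal proteins, and others were acquired by mitochondria and coat the surface of the particle. Symbols do not always follow the structure: the products of Mrps18a and Mrps30 sit in the large subunit, and that of Mrps36 is now known as a component of a metabolic enzyme complex.

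The promoters of a few genes that changed are shown first, to let the motifs counted further on be seen in place. The sequences are RefSeq's, on build GRCm38.p6, matched by symbol, whereas mm9 is the build in the submitters' processing notes, and no coordinate was moved between builds. Each runs 5′ to 3′ from 250 bases before the annotated start to 30 after it. Capitals mark matches on either strand to 6 motifs: CCGGAA, the core bound by Ets factors such as GABPA, GCGC, then A, any base and GCGC, bound by NRF1 (the NRF1 motif), AAGATGGC, bound by YY1, and the E-boxes CACGTG (bound by Myc with Max), CAGCTG and CACCTG (both of a form that E proteins bind).
Mrps27 promoter, chr13:99344536-99344815, plus strand: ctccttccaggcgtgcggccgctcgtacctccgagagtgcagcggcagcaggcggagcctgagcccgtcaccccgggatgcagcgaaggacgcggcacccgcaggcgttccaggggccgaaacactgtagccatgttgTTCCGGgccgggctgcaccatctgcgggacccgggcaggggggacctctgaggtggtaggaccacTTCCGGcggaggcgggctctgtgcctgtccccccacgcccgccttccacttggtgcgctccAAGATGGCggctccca
Mrpl2 promoter, chr17:46645971-46646250, plus strand: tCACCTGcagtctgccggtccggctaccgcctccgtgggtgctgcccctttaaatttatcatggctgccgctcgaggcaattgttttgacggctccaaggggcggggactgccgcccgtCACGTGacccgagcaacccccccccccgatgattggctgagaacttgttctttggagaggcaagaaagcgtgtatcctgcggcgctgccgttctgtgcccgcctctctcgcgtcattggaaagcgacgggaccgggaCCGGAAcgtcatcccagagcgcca
Mrps5 promoter, chr2:127587176-127587455, plus strand: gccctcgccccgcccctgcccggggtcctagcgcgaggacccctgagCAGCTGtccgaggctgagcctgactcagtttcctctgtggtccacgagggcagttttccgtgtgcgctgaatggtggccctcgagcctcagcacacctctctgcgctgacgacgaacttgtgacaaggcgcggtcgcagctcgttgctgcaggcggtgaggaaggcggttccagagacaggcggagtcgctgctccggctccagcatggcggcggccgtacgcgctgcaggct
Mrpl30 promoter, chr1:37890227-37890506, plus strand: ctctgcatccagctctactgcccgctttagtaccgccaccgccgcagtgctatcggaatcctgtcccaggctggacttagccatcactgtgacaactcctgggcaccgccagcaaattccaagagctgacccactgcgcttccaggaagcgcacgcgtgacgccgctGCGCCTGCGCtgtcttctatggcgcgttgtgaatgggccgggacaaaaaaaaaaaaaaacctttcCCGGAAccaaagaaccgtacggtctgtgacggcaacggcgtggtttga
Mrpl12 promoter, chr11:120484387-120484666, plus strand: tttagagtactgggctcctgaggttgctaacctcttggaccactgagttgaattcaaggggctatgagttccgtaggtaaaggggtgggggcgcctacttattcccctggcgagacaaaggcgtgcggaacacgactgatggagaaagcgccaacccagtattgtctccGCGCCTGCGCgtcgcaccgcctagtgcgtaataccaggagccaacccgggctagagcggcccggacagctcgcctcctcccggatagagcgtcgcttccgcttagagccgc
The Mrps27 promoter holds CCGGAA at -112 and -47 and AAGATGGC at 15, counted from the start. That of Mrpl30 holds CCGGAA at -18 and the NRF1 motif at -83, and that of Mrpl12 holds the NRF1 motif at -81. In Mrpl2, for which the table gives 3 nearby starts and the first is shown, CACGTG lies at -131, CACCTG at -249 and CCGGAA at 7. Mrps5 has CAGCTG at -203.

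The family was nearly level between the groups, with a small tilt downwards in dKO. At the adjusted p under 0.05 of the authors' deposited table, 12 of 76 genes were lower in dKO, 2 were higher and 62 were not called, so that 18.4% were called. Among all 16241 tested genes 29.0% were called, 15.1% higher and 13.8% lower. Calls depend on abundance, and among the 8062 tested genes within the family's range of mean counts 38.7% were called, and 18.7% were called lower. The 15.8% of the family that fell is thus near both background shares, and the 2.63% that rose is below the share called higher among all tested genes. The changes were small: 72 of 76 genes (94.7%) differed by less than 1.5-fold, against 71.3% of tested genes in the same range of means. Called and at least 1.5-fold changed were 4 of the family, against 19.9% of all tested genes and 26.3% in that range.

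**Figure D1:**
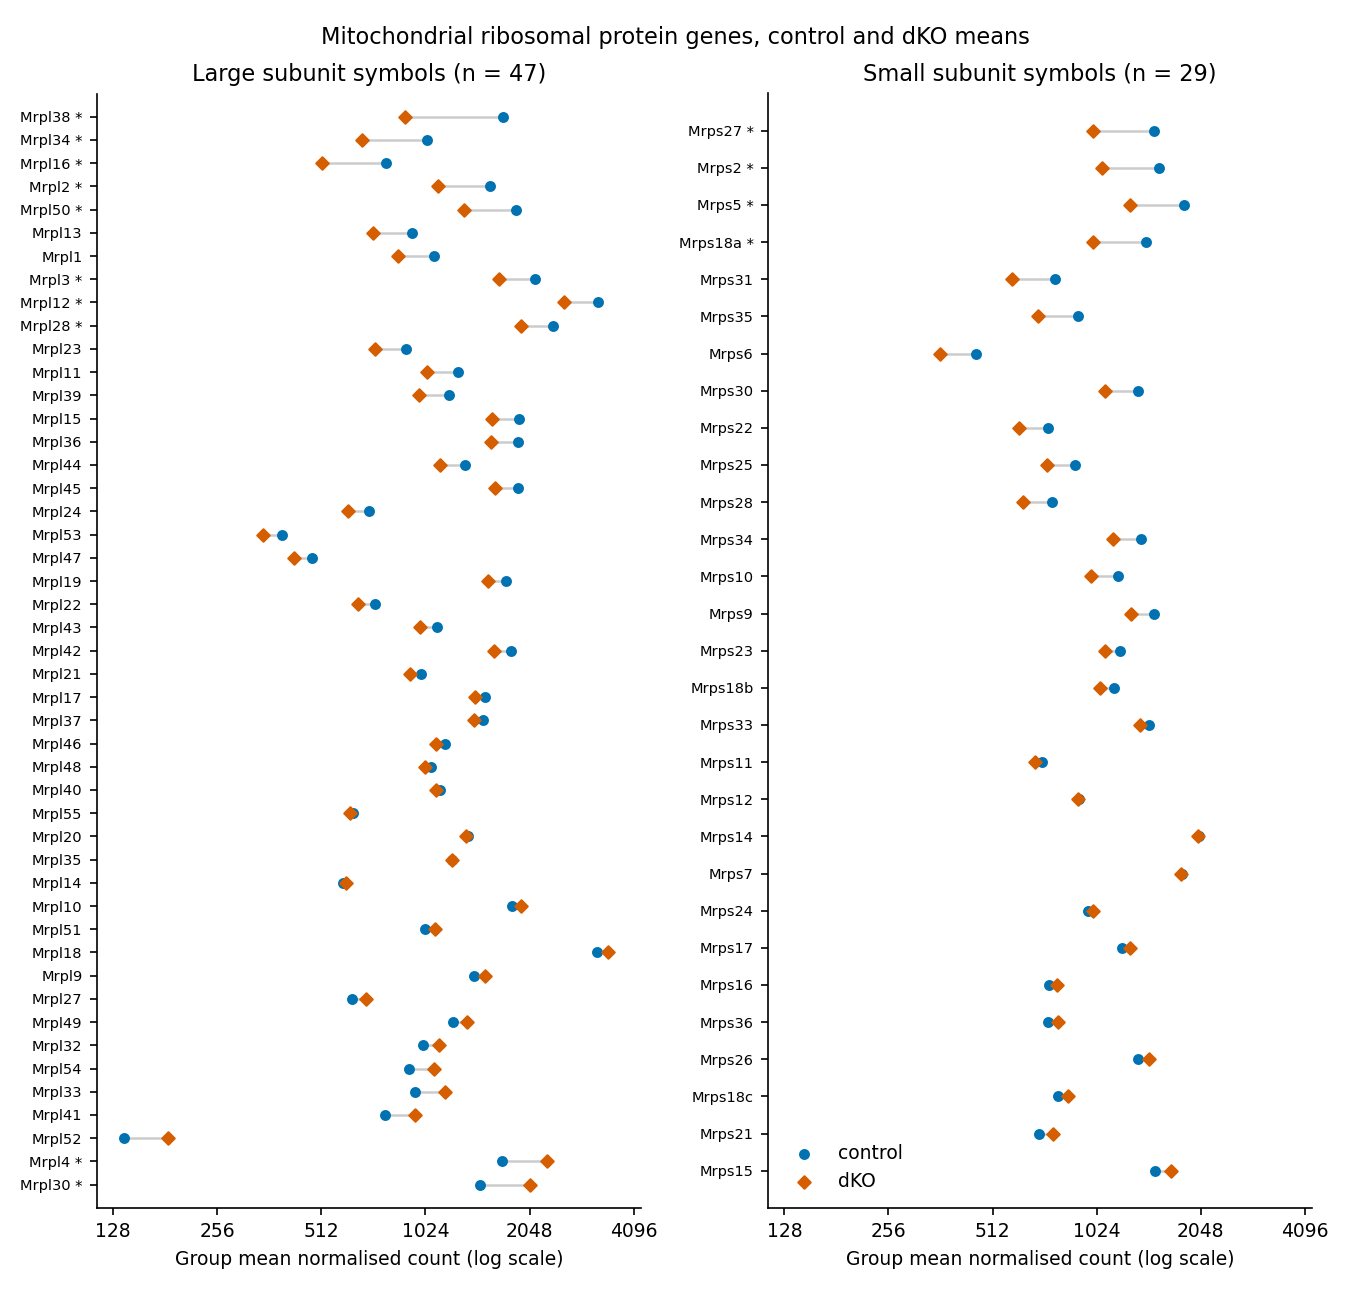
Group mean normalised counts (log axis) of the 47 large subunit and 29 small subunit genes, blue circles for control and orange diamonds for dKO, ordered by change, with an asterisk on the 14 called genes. In most pairs the dKO diamond lies to the left of the control circle by a short distance, and Mrpl38 has the widest gap.

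The tilt shows in the means: 53 of 76 genes (69.7%) had the lower mean in dKO per the authors' deposited table, against 50.6% of all tested genes. The median log2 change of the family was -0.15, with quartiles of -0.30 and 0.07, whereas the median of all tested genes was -0.02. Summed over the 76 genes, the mean normalised counts went from 95099 in control to 86717 in dKO, and so fell by 8.81%, with no replicate error available. In bulk RNA, fewer cells of a type and less RNA per cell cannot be told apart. The family made up 0.430% of all normalised counts in control and 0.371% in dKO. The sum of all normalised counts itself was 5.84% higher in dKO, and scaling both groups to the same sum lowers every log2 change here by 0.08.

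**Figure D2:**
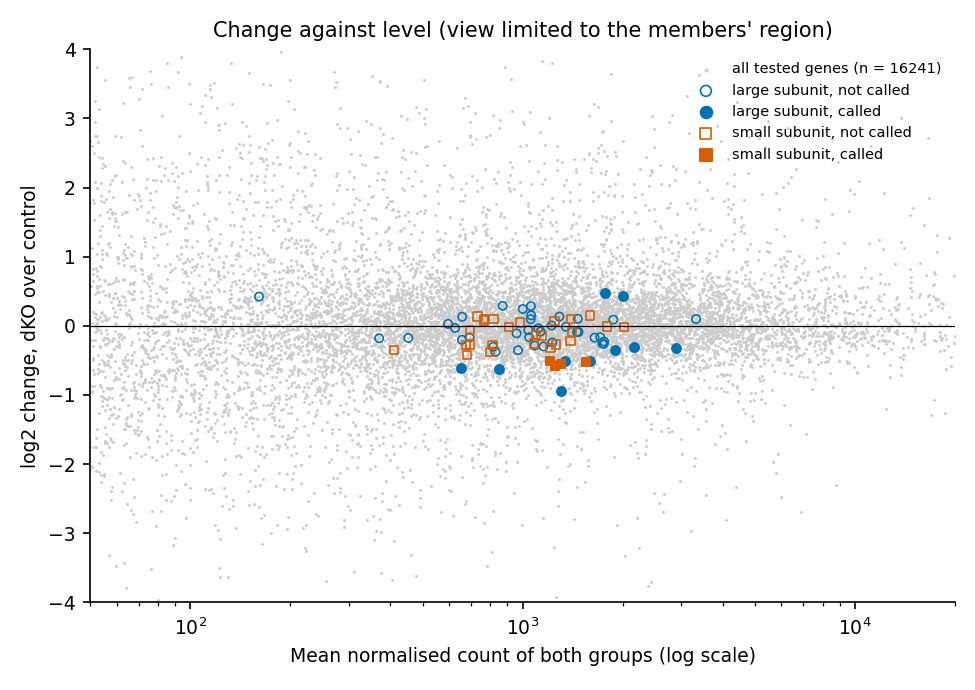
log2 change of dKO over control against the mean normalised count of both groups (log axis) for all tested genes in grey and for family members in colour, filled where called. The members form a narrow band between -0.94 and 0.48 at means where other genes spread far beyond the band.

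Large and small subunit genes gave similar values. Of 47 large subunit genes, 8 fell, 2 rose and 37 were not called, with a median log2 change of -0.17. Of 29 small subunit genes, 4 fell, none rose and 25 were not called (no small subunit gene with an unadjusted p under 0.05 had the higher mean in dKO), with a median of -0.14. The summed mean went from 61602 to 56788 for the large subunit, 0.922 of control, and from 33496 to 29929 for the small subunit, 0.893 of control. The mean was lower in dKO for 32 of 47 large and 21 of 29 small subunit genes. The difference between the subunits was not tested. Moving Mrps18a and Mrps30 to the large subunit and leaving out Mrps36 gave medians of -0.17 and -0.14 and ratios of summed means of 0.915 and 0.902.

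**Figure D3:**
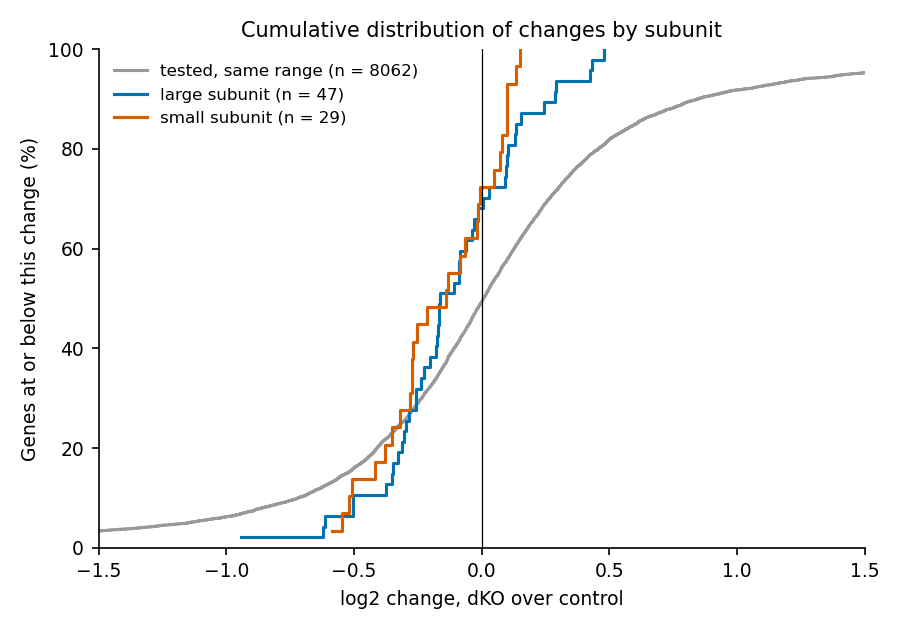
Cumulative share of genes (percent) at or below a given log2 change, for 47 large subunit genes, 29 small subunit genes and 8062 tested genes in the same range of means. The subunit curves run close together and are steeper than the grey curve, with a lower mean in dKO for 68.1% of large and 72.4% of small subunit genes against 49.3%.

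The proteins counted as without a bacterial counterpart gave a mixed picture. Among small subunit genes, the 13 without one had a median log2 change of -0.27 and a lower mean in 11 of 13, and the 16 with one had a median of -0.02 and a lower mean in 10 of 16. Among large subunit genes the medians were in the other order, at -0.09 over 17 genes without a counterpart and -0.17 over 30 with one. The mean was lower in dKO for 12 of those 17 and 20 of those 30, and the ratios of summed means were 0.898 and 0.934, against 0.848 without and 0.930 with a counterpart in the small subunit. These differences were not tested. Subunits follow the symbols here, so the 13 include Mrps18a and Mrps30, of the large subunit by structure, and Mrps36. Of the genes named Mrps18, only Mrps18c was counted with a counterpart. Mrps18a, which was called lower, and Mrps18b were counted without one, so the split depends on that choice. No recount by structure, or with these genes moved, was made for this split. Of the 46 genes with a counterpart 8 fell and 2 rose, and of the 30 without one 4 fell and 0 rose.

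The fall of Mrpl38 was the largest in the family. Mrpl38, whose product lies in the central protuberance of the large subunit, went from 1714 in control to 893 in dKO (authors' adjusted p = 5.76e-10, 1.92-fold lower) per the authors' deposited table. Whole reads recovered from the dKO mean put the 3 dKO libraries at normalised counts of 870, 894 and 915 (mean 893 ± 22.8, SD, n = 3). This solution is the only one of 2 in which the libraries lie within 2-fold of each other. With this dKO mean, no library of such a solution could have reached the control mean. That all 3 lay below it was thus fixed by the choice, and the SD describes the chosen solution only.

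The other 7 large subunit genes that fell changed by less. Mrpl2, of the peptidyl transferase region, went from 1576 to 1111 (authors' adjusted p = 0.00165, 1.42-fold lower) per the authors' deposited table. Mrpl16, which lies beside the tRNAs, went from 789 to 515 (authors' adjusted p = 0.00323, 1.53-fold lower) per the authors' deposited table. The recovered dKO libraries of Mrpl16 stood at 459, 494 and 593. Each was below the control mean, which the choice of a set within 2-fold had fixed in advance. Mrpl3, which also binds the rRNA close to this region, went from 2126 to 1673 (authors' adjusted p = 0.0216, 1.27-fold lower) per the authors' deposited table. Mrpl12, the stalk protein that contacts the translation factors, had the highest control mean of the family. Mrpl12 went from 3223 to 2570 (authors' adjusted p = 0.0198, 1.25-fold lower) per the authors' deposited table. Mrpl10, which anchors Mrpl12 to the ribosome, had means of 1817 and 1934 per the authors' deposited table and was not called.

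Mrpl34 went from 1031 to 671 (authors' adjusted p = 0.000993, 1.54-fold lower) per the authors' deposited table. Its recovered dKO libraries stood at 597, 681 and 734. All were below the control mean, which the choice of a set within 2-fold had again fixed in advance. Mrpl50 went from 1868 to 1319 (authors' adjusted p = 0.00111, 1.42-fold lower) per the authors' deposited table. Mrpl28 was the called gene closest to the threshold, with means of 2399 and 1934 per the authors' deposited table (authors' adjusted p = 0.0383, 1.24-fold lower). Both genes code for proteins of the large subunit, that of Mrpl28 with a bacterial counterpart and that of Mrpl50 without.

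The 4 small subunit genes that fell did so by closely similar amounts. Mrps27, a pentatricopeptide repeat protein, went from 1501 to 1001 (authors' adjusted p = 0.000217, 1.5-fold lower) per the authors' deposited table. Mrps2 went from 1548 to 1060 (authors' adjusted p = 0.0017, 1.46-fold lower) per the authors' deposited table. Mrps5, the counterpart of a bacterial protein at the entry of the mRNA channel, went from 1832 to 1280 per the authors' deposited table (authors' adjusted p = 0.000596, 1.43-fold lower). Mrps18a, of the large subunit by structure, went from 1423 to 1001 per the authors' deposited table (authors' adjusted p = 0.00249, 1.42-fold lower). Just outside the threshold lay Mrps31, with means of 778 and 582 per the authors' deposited table (authors' adjusted p = 0.0513). The recovered dKO libraries of Mrps31 stood at 540, 593 and 612, all below the control mean.

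Mrpl30 and Mrpl4 were the members that rose. Mrpl30 went from 1476 to 2055 (authors' adjusted p = 0.00126, 1.39-fold higher) per the authors' deposited table. Mrpl4, which lines the upper exit tunnel, went from 1702 to 2298 per the authors' deposited table (authors' adjusted p = 0.00249, 1.35-fold higher). Both belong to the large subunit and have bacterial counterparts. Mrpl52 had a slightly smaller fold, 1.34-fold higher, with means of 137 and 184 per the authors' deposited table, and was not called (authors' adjusted p = 0.367). It was the least abundant member. Its dKO mean has a single solution in whole reads, which puts the libraries at 180, 181 and 191 (mean 184 ± 6.06, SD, n = 3). In control the only solution of 2 with libraries within 2-fold of each other puts them at 112, 147 and 153 (137 ± 22.01, SD, n = 3), so the control libraries spread more widely than the dKO libraries, and the groups do not overlap in that solution.

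Among the most abundant members that were not called, some were level and some had a lower mean in dKO. Mrpl18 had means of 3213 and 3443, Mrps14 of 2029 and 2010, Mrps7 of 1803 and 1794, and Mrpl45, which tethers the ribosome to the inner membrane, of 1898 and 1623 per the authors' deposited table. Close behind in abundance, Mrpl15 had means of 1911 and 1598 and Mrpl36 of 1893 and 1584 per the authors' deposited table. Mrps35, with means of 902 and 693 per the authors' deposited table, had the largest fall after Mrps31 among genes that were not called (authors' adjusted p = 0.0656). Mrps12, a protein of the decoding centre, had means of 914 and 903 per the authors' deposited table. Without adjustment 22 of the 76 genes had a p under 0.05 per the authors' deposited table, against 5904 of 16241 tested genes.

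Per kilobase of the longest GENCODE M21 transcript, the control levels spanned from 143 for Mrpl47 to 2720 for Mrpl42. Mrpl18, Mrpl12 and Mrpl28 followed Mrpl42, at 2636, 2449 and 2246 normalised counts per kilobase in control. At the low end Mrps25 stood at 146 and Mrpl17 at 208. Genes that fell stood from rank 3 (Mrpl12) to rank 61 (Mrps5) of 76 in this order. Over the 76 members the log2 change had a Spearman correlation of 0.06 with this level and of -0.19 with transcript length. These describe genes that share the same 6 libraries, and carry no test.

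Reads per dKO library were recovered for 26 of 76 members, 2 from a single solution and 24 from the only solution within 2-fold. Since closeness chose those 24, their spread is a description and says nothing of the other members. The coefficient of variation of these 26 had a median of 6.31% and ran from 1.16% (Mrps6) to 18.1% (Mrps22). In 16 of the 26 all 3 dKO libraries lay below the control mean, in 3 all lay above it and in 7 they lay on both sides. A control mean carries its own error, which could not be read for most genes, so this is no test. For Mrpl38, Mrpl34 and Mrpl16 the choice of sets within 2-fold fixed the outcome, since no library could then reach the control mean. Mrps22 had the widest spread of the 26, with 544, 549 and 738, the highest close to its control mean of 741 per the authors' deposited table.

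Mrps30 had widely spread dKO libraries. Per the authors' deposited table its means were 1348 and 1080, with an adjusted p of 0.603 and a fold of 1.25 lower. Mrpl11, with like means of 1275 and 1038 per the authors' deposited table, had an unadjusted p of 0.0429, against 0.358 for Mrps30. Of 29 sets of whole reads that give the dKO mean of Mrps30, none has its libraries within 2-fold, and in the closest one the highest library is 2.39-fold above the lowest. Every other member had at least 1 set within 2-fold in each group, and so had Mrps30 in control. Such a set need not be the true one where many sets give the mean, as with the 297 sets of Mrpl18 in dKO. Whether most other members were less spread than Mrps30 is thus not shown.

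Proteins of the mitochondrial ribosome under other symbols tilted the same way. Of 6 fixed for this purpose, 3 fell, 0 rose and 3 were not called per the authors' deposited table, with a median log2 change of -0.33. The share that fell was 50%, of few genes, against 13.8% of all tested genes and 18.7% within the family's range of means. Ptcd3, a pentatricopeptide repeat protein of the small subunit, went from 3388 to 2388 per the authors' deposited table (authors' adjusted p = 9.69e-05). Ict1, a peptidyl-tRNA hydrolase built into the large subunit, went from 1054 to 745 per the authors' deposited table (authors' adjusted p = 0.0083). Gadd45gip1 went from 2040 to 1567 per the authors' deposited table (authors' adjusted p = 0.0136). Dap3, with means of 2260 and 1873 per the authors' deposited table, was the most abundant that was not called. Mrp63, an older symbol of a large subunit gene that the pattern does not take, was added after its values were seen, and had means of 815 and 929 per the authors' deposited table (authors' adjusted p = 0.445).

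Among the genes that load tRNAs for this ribosome, the mean was lower in dKO for 20 of 20 per the authors' deposited table. Of these mitochondrial aminoacyl-tRNA synthetases and amidotransferase subunits, 8 fell, 0 rose and 12 were not called, with a median log2 change of -0.35. The share that fell was 40%, against 13.8% of all tested genes and 18.7% within the family's range of means. Tars2, the threonine enzyme, went from 2507 to 1566 (authors' adjusted p = 4.96e-07) per the authors' deposited table. Pars2, the proline enzyme, went from 622 to 396 (authors' adjusted p = 0.00399) per the authors' deposited table. Lars2 had means of 316470 and 275373 per the authors' deposited table, far above any other member of the list, and was not called. How reads that match several places were counted is not given in the sources used here.

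Genes of translation and assembly held 8 falls and 1 rise. Called lower were 13.3% of the translation factors and 22.2% of the assembly genes. That share was 13.8% of all tested genes and 18.7% within the family's range of means, so both lists lay near the background. Of 15 translation factors and their partners, 2 fell, 0 rose and 13 were not called, with a median of -0.22. They were Guf1, from 1313 to 777 (authors' adjusted p = 0.00052), and the elongation factor gene Tufm, from 3639 to 2746 (authors' adjusted p = 0.00216), per the authors' deposited table. Lrpprc, an mRNA stabilising factor, had means of 3622 and 3300 per the authors' deposited table and was not called. Of 27 assembly and rRNA maturation genes, 6 fell, 1 rose and 20 were not called, with a median of -0.21. Gtpbp10, a GTPase of large subunit assembly, went from 730 to 442 (authors' adjusted p = 0.000676), and the helicase gene Dhx30 from 4317 to 3346 (authors' adjusted p = 0.00495), per the authors' deposited table. Mpv17l2 was the member that rose, from 503 to 833 (authors' adjusted p = 0.000228) per the authors' deposited table. Afg3l2, a protease subunit, had means of 1804 and 1951 per the authors' deposited table and was not called.

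Upstream and downstream of the ribosome the counts were as follows. Called lower were 23.1% of the DNA and transcription genes, 63.6% of the folding genes and 22.7% of the import genes. The share was 13.8% of all tested genes and 18.7% within the family's range of means. The folding genes had a median control mean of 4027, above the 3328 at which that range ends, so neither share is matched to their abundance. Of 13 genes of mitochondrial DNA upkeep and transcription, 3 fell, 1 rose and 9 were not called, with a median of -0.20. Polg, the mitochondrial DNA polymerase, rose from 1031 to 2089 (authors' adjusted p = 3.98e-11), whereas the helicase gene Peo1 fell from 1279 to 703 (authors' adjusted p = 3.52e-07), per the authors' deposited table. Mgme1, a nuclease gene listed as 8430406I07Rik, fell from 1149 to 699 (authors' adjusted p = 3.66e-05) per the authors' deposited table. Tfam, the packaging and transcription factor, stood at 2091 and 2009 per the authors' deposited table and was not called. Of 11 folding and proteolysis genes, 7 fell, 0 rose and 4 were not called, with a median of -0.34. The chaperonin gene Hspd1 went from 22852 to 14810 (authors' adjusted p = 2.7e-10) and Hspa9, the matrix Hsp70, from 16616 to 10994 (authors' adjusted p = 4.84e-09), per the authors' deposited table. Phb2, a prohibitin of the inner membrane, went from 7748 to 5729 (authors' adjusted p = 0.000116) per the authors' deposited table, and Trap1, with means of 5983 and 5379, was not called. Of 22 import genes, 5 fell, 2 rose and 15 were not called, with a median of -0.20. Tomm40, the outer membrane channel, went from 3607 to 2570 (authors' adjusted p = 0.000124) per the authors' deposited table. Timm9, an intermembrane space chaperone, went from 803 to 532 (authors' adjusted p = 0.00363) and Tomm20, an import receptor, had means of 4195 and 3892 without a call, per the authors' deposited table.

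**Figure D4:**
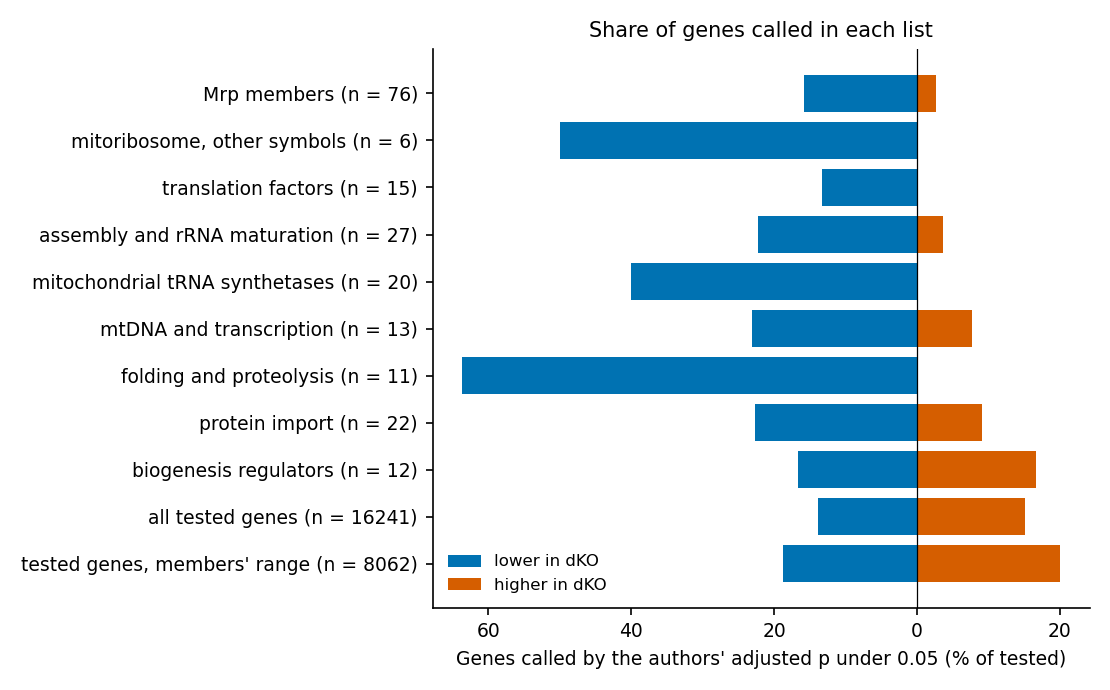
Percent of tested genes called lower (blue, to the left) and higher (orange, to the right) in dKO, for the family, 8 related lists and 2 backgrounds. The lower share is 15.8% for the family, 63.6% for folding and proteolysis and 13.8% for all tested genes.

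Known regulators of mitochondrial gene expression moved in both directions. Of 12, 2 fell, 2 rose and 8 were not called, with a median log2 change of -0.02. The 16.7% called in each direction is near the 15.1% higher and 13.8% lower among all tested genes. Myc, an activator of ribosome and mitochondrial biogenesis, went from 9311 to 3451 (authors' adjusted p = 1.28e-41, 2.70-fold lower) per the authors' deposited table. Pprc1, a coactivator of the same family as Ppargc1a, went from 3400 to 2376 (authors' adjusted p = 0.00392) per the authors' deposited table. Ppargc1a rose from 1.71 to 45.7 (authors' adjusted p = 7.53e-05) and Gabpb2 from 1701 to 2438 (authors' adjusted p = 0.000231) per the authors' deposited table. Nrf1 had means of 2546 and 2860, Gabpa of 2330 and 2423, and Yy1 of 1267 and 1098, per the authors' deposited table, and none of these was called. Beside these values, the part of any regulator in the family's change was not tested.

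The promoters of the family held CCGGAA and AAGATGGC more often than those of other genes, as a description. Promoter windows of 300 bases, from 250 before to 50 after the start, were found for 67 of 76 members. CCGGAA on either strand was in 38 of 67 (56.7%), against 33.9% of 7367 other tested genes with a mean of at least 100 and 16.7% of all 27025 genes in the promoter table. AAGATGGC was in 12 of 67 (17.9%), against 5.71% and 3.19%. The NRF1 motif was also in 12 (17.9%), against 12.7% and 5.19%. The E-boxes had somewhat lower shares. CACGTG was in 5 members (7.46%), against 12.5% of the other tested genes and 8.09% of all genes. CAGCTG was in 10 (14.9%), against 16.8% and 18.3%, and CACCTG in 9 (13.4%), against 19.8% and 22.6%. These differences rest on few genes and were not tested. A match names letters in a window and not a bound site.

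Each motif was found both in genes that changed and in genes that did not. CCGGAA was in 7 of the 11 promoters of genes that fell, in that of Mrpl30, the only rising gene with a window, and in 30 of 55 that were not called. AAGATGGC was in 2 of 11 that fell, Mrps18a and Mrps27, and in 10 of 55 that were not called. The NRF1 motif was in 1 of 11, Mrpl12, and in 10 of 55. CACGTG was in 1 of 11, Mrpl2, and in 4 of 55. CACCTG was in 4 of 11, Mrpl2, Mrpl16, Mrpl34 and Mrps18a, and in 5 of 55, a larger share among genes that fell. That difference rests on few genes and was not tested. CAGCTG was in 2 of 11, Mrps2 and Mrps5, and in 8 of 55. By subunit, CCGGAA was in 23 of 41 large and 15 of 26 small subunit promoters.

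Many members share their promoter region with a gene on the other strand. For 24 of the 67 with a window, a tested gene started on the opposite strand within 1000 bases upstream, in 23 pairs, since Mrpl46 and Mrps11 start 42 bases apart and point away from each other. In 2 pairs both genes were called, and in both they moved together. Mrpl30 pairs with Mitd1, which went from 843 to 1727 (authors' adjusted p = 1.12e-07), and Mrpl2 with Klc4, which went from 563 to 305 (authors' adjusted p = 0.000243), per the authors' deposited table. In 3 pairs the called member had a partner that was not called: Zfp189 beside Mrpl50, Ptcd2 beside Mrps27 and Zfp661 beside Mrps5. Called partners also stood beside members that were not called: Fau, higher, beside Mrpl49, and 2610507I01Rik and Gga3, both lower, beside Mrpl55 and Mrps7. In all, 5 of the 23 partners were called, and 29.0% of all tested genes were. The means of both partners lay on the same side of control in 17 of 23 pairs. The same counts were not made for pairs of other genes, so no excess of shared direction or of such neighbours is shown. By GENCODE M21, 18 members share exon bases with another listed protein-coding gene, none of them called, and without stated strand such reads cannot be told apart.

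Cytosolic ribosomal protein genes and nuclear respiratory chain genes, counted the same way, are given for comparison. Of 82 tested cytosolic ribosomal protein genes 19 fell and 1 rose per the authors' deposited table, with a median log2 change of -0.21 and a lower mean in 93.9%. Of 82 respiratory chain genes 7 fell and 10 rose, with a median of 0.01 and a lower mean in 48.8%. Called lower were 23.2% of the cytosolic and 8.54% of the respiratory chain genes, against 13.8% of all tested genes. Called higher were 1.22% and 12.2%, against 15.1%. The cytosolic genes had a median control mean of 9664, above the family's range, and no background at such levels was counted. Rps2 went from 57899 to 45315 and Rpl5 from 20307 to 15849, and of the respiratory chain Sdhd fell from 4650 to 3215 and Uqcrq rose from 1037 to 1735, per the authors' deposited table. The family lay between them, with a median of -0.15 and a lower mean in 69.7%. The differences between these lists were not tested.

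The checks of the series bear on these values as follows. The deleted genes were lower in dKO, Tcf3 from 8931 to 364 and Tcf12 from 3845 to 562, per the authors' deposited table. All 7 markers of early T cell progenitors were detected, 4 higher and 2 lower in dKO, and Kit had means of 14094 and 19067 per the authors' deposited table. Other markers on this list changed more than Kit, with log2 changes from -2.48 to 1.70, so the groups also differed in progenitor markers. Il2ra, which codes for CD25, the marker sorted against, had means of 8417 and 8536 per the authors' deposited table. Genes listed as markers of other cell types differed between the groups. The sum of 4 myeloid markers went from 8243 to 1684, and that of 5 innate lymphoid markers from 5864 to 18850, per the authors' deposited table. The summed B lineage markers were 45.1 and 38.5, with Pax5 at 0 in both groups, and the summed erythroid markers 158 and 110, with both globin genes on the list at 0. Stromal markers summed to 248 and 364, with Pdgfra at 0. Elane, of the myeloid list, was at 0 in control. In bulk RNA, other cells among those sorted and expression of these genes within the progenitors cannot be told apart. The part of either in the family's change was not tested.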

How the data were processed

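RNA sequencing libraries came from sorted fetal thymic progenitors, 3 control and 3 dKO, grouped by their labels. Per the labels' protocols, RNA from few cells was amplified with a low-input SMARTer kit and sequenced on an Illumina HiSeq. TopHat2 2.0.14, bcl2fastq 1.8.4, mm9 and DESeq version 2 are named in the submitters' processing notes. For the read counter, its annotation and any use of strand, the sources used here give nothing. The deposited signal values are, per the file headers, each group's mean normalised count. The deposited fold is the ratio of these means (to within a relative 1.12e-07) and the p-values and adjusted p-values are the authors' own.

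A gene was called at the authors' adjusted p under 0.05, with direction from the means. log2 changes were computed from the means, with a group at 0 set to 3 reads over the group (1.21 in control, 0.963 in dKO). The normalised counts sum to 22.1 M in control and 23.4 M in dKO. No value per library or error is in the table.

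Group means are sums of whole reads weighted by library, so sets of reads that give each mean within its rounding were listed in full. A set was accepted where it was the only one, or the only one with libraries within 2-fold. Among genes with means of 100 to 400 and a single set, 83.9% in dKO and 76.7% in control lay within 2-fold, so that step is an assumption. The search was also run on simulated data, whose libraries were drawn with a fixed spread that was not taken from these data. That run therefore cannot say how often the choice within 2-fold is right here. Recovered reads come from amplified cDNA and are not independent molecules.

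All called members are named. Of the others, the most abundant, those of largest fold and those next to the threshold are named. From each list, up to 3 called genes of smallest adjusted p and the most abundant gene not called could be named, and some genes that this takes are not reported here. Mrps12, Mrps22, Mrps30, Mrpl11, Mrpl15, Mrpl36, Uqcrq, the members named by level per kilobase and the promoter partners were chosen after their values were seen, as were the promoter motifs, the bacterial counterparts and the cytosolic and respiratory lists. Members and lists were chosen with earlier results of these data known. Alternatives were other thresholds, folds, scalings, pseudocounts, minimum means and subunit assignments. Python 3.11.15 with pandas 2.3.3 was used.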

Additional observations from a re-analysis of the deposited data

How the results depend on the processing

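Of 62 recomputed values, 56 stayed within 1.5 times (counts) or 0.1 on the log2 scale (medians and ratios of sums), and none turned direction. Many of the 56 could not have moved, so this tally is no measure of robustness. A minimum mean of 100 left out no member, since the lowest group mean was 137. Rescaling and centring shift every log2 change by 0.08 and 0.006, which is under the limit of 0.1. The count of 0 small subunit genes called higher could not fall at a stricter cut. With at least 1.5-fold required, the genes called lower went from 12 to 4 (large subunit 8 to 3, small subunit 4 to 1), and those called higher from 2 to 0 (large subunit 2 to 0). At an adjusted p under 0.01 the large subunit genes called lower went from 8 to 5. Rescaling to equal sums moved the family median from -0.15 to -0.23 and the members with a lower mean from 53 to 58 of 76. No paired analysis was possible because the table holds group means without replicate numbers. Leaving out each library was not run for the counts and medians, since reads were recovered in both groups for only 3 members. Of tested genes with a mean under 10, 1.26% were called, and no member had a mean that low.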
